A study of Mus musculus with 4 samples.

Results

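Metallothioneins and genes of the oxidative stress response were followed in whole retinas of adult mice after genetically induced cell killing. The set holds 10 genes taken by symbol: Mt1, Mt2, Mt3, Hmox1, Nqo1, Gclm, Gclc, Txnrd1, Srxn1 and Slc7a11. They are 10 of the 22558 gene symbols in the data. All mice were about 8 weeks old, on a mixed background of C57BL/6 and 129. DTA mice were Msi1-CreERT2/+; R26R-DTA/+ and control mice were +/+; R26R-DTA/+, so both carried the R26R-DTA allele and the controls had no Cre. Msi1-CreERT2 places a Cre recombinase fused to a ligand-dependent part of the estrogen receptor under Msi1, the gene of an RNA-binding protein. R26R-DTA yields diphtheria toxin fragment A, which blocks protein synthesis, in cells where Cre has acted. The labels say neither which retinal cells recombine nor which agent started the injury. There were 4 libraries, 1 per group: DTA and control at day 1 after injury, and DTA and control at day 5.

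Levels are given as FPKM, the number of fragments per kilobase of transcript normalised to library size, on mouse build mm9. With 1 library per group there is no spread between mice and no test, so p-values and standard deviations are not given. All 10 members had a value in both controls and in day 5 DTA. The day 1 DTA file lists 5799 symbols, from chromosomes 1 and 10 to 14, and of the members it holds Txnrd1. The other 9 were not analysed at day 1.

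Metallothioneins are small cysteine-rich proteins that bind zinc and copper and also react with oxidants. Their genes are switched on by MTF1, a factor that senses free zinc and binds metal response elements in their promoters. Many of the other members are targets of NRF2, the protein of Nfe2l2. NRF2 is held down by KEAP1 and, once freed, pairs with small Maf proteins on antioxidant response elements. Hmox1 is also kept off by the repressor BACH1 until heme displaces it. The retina is rich in zinc, and photoreceptors consume much oxygen and hold easily oxidised lipids.

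Promoter sequences of 8 of the 10 members were found in RefSeq's table for GRCm38.p6, which is not the build of the files. Each runs from 250 bases before to 50 bases after an annotated start. The metallothionein promoters are shown first because these genes lie side by side and differed in their response. Capitals mark the metal response element core, searched on both strands as TGCACNC or TGCGCNC.

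Mt1, chr8:94178839-94179138, plus strand: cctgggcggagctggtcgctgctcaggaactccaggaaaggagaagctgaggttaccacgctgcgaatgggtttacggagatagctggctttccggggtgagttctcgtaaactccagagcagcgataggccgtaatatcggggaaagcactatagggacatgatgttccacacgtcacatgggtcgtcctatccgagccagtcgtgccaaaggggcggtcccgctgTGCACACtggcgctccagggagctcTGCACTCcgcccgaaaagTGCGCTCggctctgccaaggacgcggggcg

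Mt2, chr8:94172368-94172667, plus strand: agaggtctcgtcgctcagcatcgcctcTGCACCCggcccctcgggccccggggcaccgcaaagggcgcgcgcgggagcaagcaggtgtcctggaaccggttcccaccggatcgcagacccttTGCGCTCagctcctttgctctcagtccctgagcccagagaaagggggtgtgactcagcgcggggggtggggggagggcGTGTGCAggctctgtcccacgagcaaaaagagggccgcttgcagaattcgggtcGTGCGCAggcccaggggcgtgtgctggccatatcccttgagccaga

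Mt3, chr8:94152357-94152656, plus strand: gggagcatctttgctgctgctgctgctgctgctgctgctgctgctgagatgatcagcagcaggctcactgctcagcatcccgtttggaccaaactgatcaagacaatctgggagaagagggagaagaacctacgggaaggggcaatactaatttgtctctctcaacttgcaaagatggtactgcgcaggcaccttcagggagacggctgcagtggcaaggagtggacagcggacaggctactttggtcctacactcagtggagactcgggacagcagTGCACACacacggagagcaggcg

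Mt1 held 3 matches, at -23 to -17, 3 to 9 and 21 to 27, where 1 is the annotated start used for the window. Sequence outside the windows was not searched, so all counts of matches hold for these annotated starts alone. Mt2 held 4, at -223 to -217, -128 to -122, -50 to -44 and 5 to 11, the last 2 of them on the minus strand. Mt3 held 1, at 28 to 34. Of 32851 promoters of this length, 25.7% held at least 1 match, 1.97% at least 3 and 0.517% at least 4. A match of letters is a description and not a measured binding site.

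The next promoters are those of other members with a match to the antioxidant response element core, searched on both strands as TGACNNNGC and set in capitals.

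Gclm, chr3:122245307-122245606, plus strand: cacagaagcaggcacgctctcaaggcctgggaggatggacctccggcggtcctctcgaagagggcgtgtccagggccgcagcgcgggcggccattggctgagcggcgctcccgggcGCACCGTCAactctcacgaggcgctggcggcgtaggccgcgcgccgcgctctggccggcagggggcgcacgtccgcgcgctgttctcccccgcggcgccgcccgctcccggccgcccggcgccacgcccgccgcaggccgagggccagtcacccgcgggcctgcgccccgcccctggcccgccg

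Srxn1, chr2:152105274-152105573, plus strand: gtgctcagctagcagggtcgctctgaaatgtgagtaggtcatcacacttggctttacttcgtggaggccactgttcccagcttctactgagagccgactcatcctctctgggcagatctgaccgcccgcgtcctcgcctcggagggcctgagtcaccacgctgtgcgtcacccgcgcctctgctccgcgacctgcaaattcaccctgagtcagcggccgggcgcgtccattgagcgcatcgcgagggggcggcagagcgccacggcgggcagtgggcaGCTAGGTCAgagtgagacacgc

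Txnrd1, chr10:82858956-82859255, plus strand: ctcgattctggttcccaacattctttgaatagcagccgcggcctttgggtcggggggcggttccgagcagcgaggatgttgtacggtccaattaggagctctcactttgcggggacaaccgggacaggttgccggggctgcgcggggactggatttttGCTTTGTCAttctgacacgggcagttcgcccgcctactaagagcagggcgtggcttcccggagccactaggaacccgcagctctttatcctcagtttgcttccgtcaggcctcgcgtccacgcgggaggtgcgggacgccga

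The match lay at -134 to -126 in Gclm, at 29 to 37 in Srxn1 and at -92 to -84 in this 1 of the 3 Txnrd1 windows in the table, each on the minus strand. Mt2 held 1 as well, at -79 to -71 on the plus strand, which reads TGACTCAGC. At least 1 match was present in 12.4% of the 32851 promoters. Other forms of the core were not searched. The Srxn1 window also holds TGAGTCAGC, with a G for the C of the core, which the search did not count. By the metal response core, Gclm held 3 matches, of which that at -138 to -132 overlaps the antioxidant match, and Srxn1 held 1. The windows of Nqo1 and Slc7a11 held neither core.

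A gene was called higher or lower in DTA by size alone. The difference of log2(FPKM + 1), DTA minus control, had to be at least 1 in size and larger than the difference of that gene between the 2 controls, with at least 5 FPKM in one of the libraries. At day 5 this called 667 of 9883 genes higher, 6.75%, and 175 lower, 1.77%. From the smallest FPKM values, depth was estimated at 98.4 M (mega) fragments for day 1 DTA with 74.2 M for its control, and at 29.3 M fragments for day 5 DTA with 36.5 M for its control. The tissue carried its defining transcripts: 9 rod markers summed to 3946 FPKM in day 5 DTA, 13356 in the control at day 5 and 10103 in that at day 1. Msi1, the gene that drives Cre, had 47.9 FPKM in day 5 DTA, 90.0 in the control at day 5 and 129 in that at day 1. The day 1 control stood apart from the day 5 libraries. The summed FPKM of 12 lens markers was 18.8 in day 5 DTA, 275 in the control at day 5 and 1858 in that at day 1, so the day 5 pair differed as well. The 4 lens markers in the day 1 DTA file summed to 747 FPKM in day 1 DTA and 448 in its control. Those 4 summed to 2.84 in day 5 DTA and 49.0 in the control at day 5. Xist, the RNA of the inactive X chromosome, had 60.4 FPKM in day 5 DTA, 53.7 in the control at day 5 and 0.00596 in that at day 1. The Y-linked Ddx3y had 0.275, 0.175 and 15.6 FPKM in the same libraries. These values read as male for the day 1 control and as female for both day 5 libraries. The difference between the controls, and every day 5 value against the day 1 control, thus cannot be told apart from a difference of sex. Values against each control are therefore given for every member. The day 1 DTA file lists no X or Y genes, so the sex of that library is not known.

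Of the 10 members, 3 were called higher in day 5 DTA, Mt1, Mt2 and Hmox1, and 0 were called lower. The other 7 had differences between -0.17 and 0.87. In whole tissue, a change in the number of cells of a type and a change of RNA per cell cannot be told apart. The median over the 10 members was 0.74, beside 0.26 over the 9883 genes at 5 FPKM or more and 0.06 over all 22541 genes with a value. Of the members, 9 reached 5 FPKM in one of the day 5 libraries and Nqo1 did not. Hmox1 reached it through the DTA library alone, so no weight is put on the count among those that did. Relative to the median of 0.26, Mt2 stood at 2.27, Hmox1 at 2.19, Mt1 at 1.53, Txnrd1 at 0.61, Gclc at 0.52 and Gclm at 0.44, while Slc7a11 (-0.14), Nqo1 (-0.36), Mt3 (-0.38) and Srxn1 (-0.43) lay under it. Between the controls 0 members were called, beside 240 of 9321 genes, 2.57%, called either way. Hmox1 and Nqo1 were under 5 FPKM in both controls and could not be called. With so few members and so small a share, the count of 0 carries little weight. In the comparison of the controls the 10 members had a median of -0.14 (day 5 minus day 1), with 2 above 0 and 8 below.

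**Figure D1:**
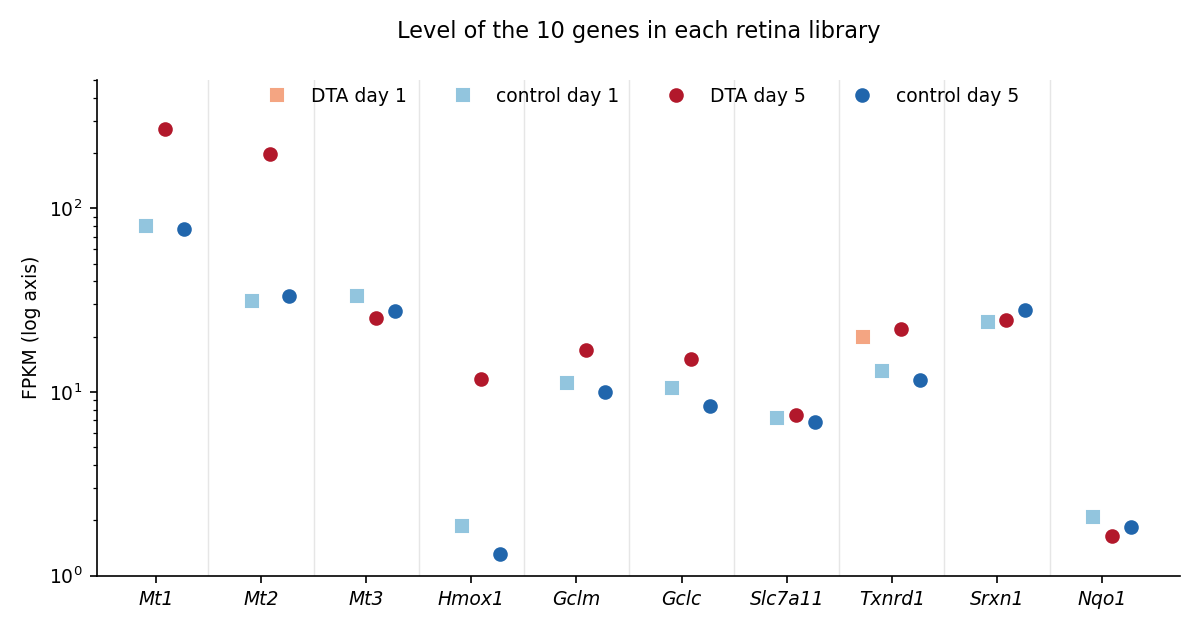
FPKM of the 10 genes on a log axis, 1 point per library, for day 1 (squares) and day 5 (circles), with DTA in reds and control in blues. Mt1, Mt2 and Hmox1 in day 5 DTA, at 269, 197 and 11.7 FPKM, lie well above their pairs of control points, and only Txnrd1 has a day 1 DTA point, at 20.0 FPKM.

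Mt1 and Mt2 encode the metallothioneins found in most tissues. Mt1 (chromosome 8, 96702989 to 96704227, plus strand) had 269 FPKM in day 5 DTA, against 77.2 FPKM in the control at day 5 and 80.2 in that at day 1. The controls lay close together and DTA stood above both. The ratio of DTA to control at day 5 was 3.48, from 3.01 to 3.94 by the authors' bounds, and the log2 difference was 1.79. Those bounds cover the assignment of fragments within a library, not the spread between mice.

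Mt2 (chromosome 8, 96696518 to 96697467, plus strand) had 197 FPKM in day 5 DTA, against 33.1 in the control at day 5 and 31.4 in that at day 1. Again DTA alone was high, and the 2 controls differed by 0.07 on the log2 scale. Mt2 was 5.94-fold higher in DTA, from 4.90 to 6.92 by the bounds, a log2 difference of 2.53. Against the day 1 control the ratios were 6.26 for Mt2 and 3.35 for Mt1. Among the genes at 5 FPKM or more, the difference of Mt2 stood at percentile 98.6 and that of Mt1 at percentile 97.5.

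Mt3, the metallothionein known mainly from neurons and glia of the brain, was not called. Mt3 (chromosome 8, 96676507 to 96678048, plus strand) had 25.2 FPKM in day 5 DTA, against 27.5 in the control at day 5 and 33.1 in that at day 1. Its log2 difference at day 5 was -0.12, smaller in size than the -0.26 between the controls. Mt4, the epithelial metallothionein and no member of the set, was listed at 0 in these 3 libraries. The summed FPKM of Mt1, Mt2, Mt3 and Mt4 was 491 in day 5 DTA, against 138 in the control at day 5 and 145 in that at day 1.

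The FPKM of Mt1, Mt2 and Mt3 lay above the authors' own upper bound in 3 of 3 libraries. For Mt1 the FPKM was 1.54 to 1.56 times the midpoint of the bounds. The same ratio was 1.49 to 1.54 for Mt2 and 1.49 to 1.52 for Mt3. Their coding transcripts are short, 538 bases for Mt3, 556 for Mt2 and 540 and 631 for Mt1. By midpoints the ratios of DTA to control at day 5 were 3.44 for Mt1, 5.79 for Mt2 and 0.936 for Mt3, close to those of the FPKM. The 3 genes share no stretch of 31 bases with transcripts of other coding genes in the GENCODE annotation of this build, so the values of these close relatives are not mixed by identical sequence of that length.

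Around the cluster no gene other than Mt1 and Mt2 was called higher, but few could be called. From Mt4 to Mt1 the cluster spans 43.1 kb in mm9. Within 500 kb on either side of Mt1 lay 17 other genes, of which 11 reached 5 FPKM; their median difference at day 5 was 0.13. Of these 11, 0 were called higher and 1 lower, next to 6.75% and 1.77% of all genes. Counts among 11 genes carry little weight. The 1 called lower was the miRNA gene Mir138-2, listed at 0 in day 5 DTA and at 42.1 and 20.1 FPKM in the day 5 and day 1 controls. Nup93, the next gene beyond Mt1 and a subunit of the nuclear pore, had 7.99 FPKM in day 5 DTA, against 4.56 in the control at day 5 and 5.19 in that at day 1, a difference of 0.69. Bbs2, a ciliary gene on the other side, had 23.9, 22.1 and 22.5 FPKM in the same libraries. Farther out, Nlrc5, an activator of MHC class I genes, had 3.21, 0.0568 and 0.0650 FPKM, under 5 FPKM in all 3.

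**Figure D2:**
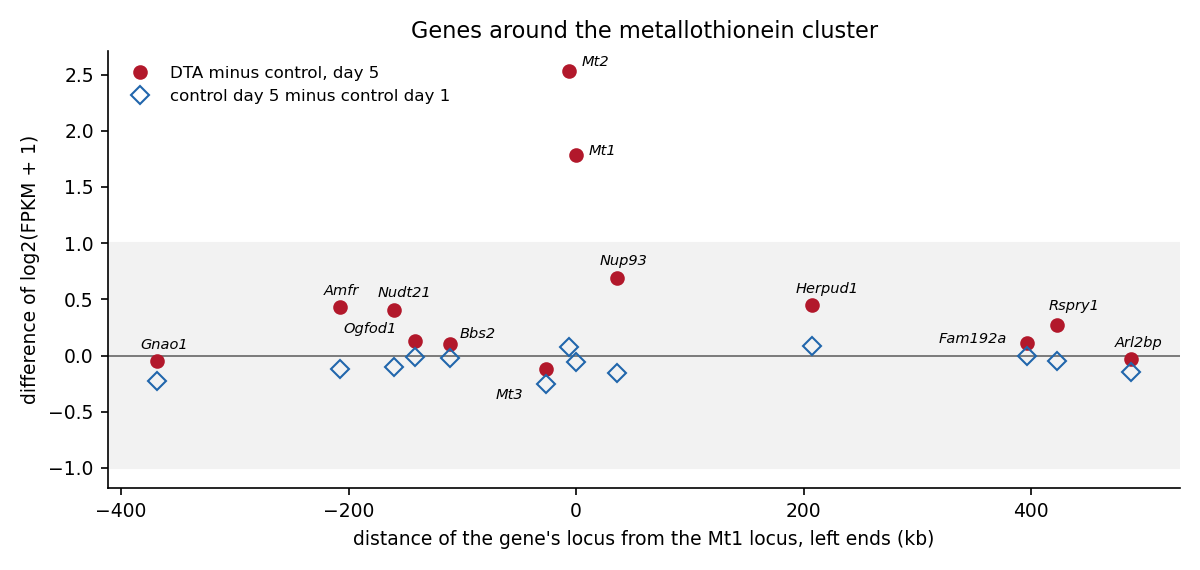
Difference of log2(FPKM + 1) for genes of at least 5 FPKM within 500 kb of Mt1, against the distance between left ends of the loci in kb. Filled circles are DTA minus control at day 5, open diamonds control day 5 minus control day 1, and the grey band spans differences under 1 in size; the miRNA gene is not drawn. Mt2 at 2.53 and Mt1 at 1.79 stand above the band, while Mt3 at -0.12 and the other genes lie inside it.

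Hmox1 encodes heme oxygenase 1, the inducible enzyme that breaks heme into biliverdin, carbon monoxide and iron. Hmox1 (chromosome 8, 77617517 to 77624492, plus strand) had 11.7 FPKM in day 5 DTA, against 1.32 in the control at day 5 and 1.87 in that at day 1. It was the lowest of the 10 members in both controls and the 8th in day 5 DTA. The ratio at day 5 was 8.87, from 5.79 to 12.8 by the bounds, and the log2 difference was 2.45. That difference stood at percentile 98.5 among genes at 5 FPKM or more. Hmox1 entered that set through the DTA library alone, so no weight is put on the percentile. Against the day 1 control the ratio was 6.26. From the estimated depth and its longest coding transcript of 1606 bases, about 551 fragments in day 5 DTA stood against 77.4 in the control at day 5 and 223 in that at day 1. The size of the log2 difference depends on the pseudocount, since the control values are low: it was 1.40 with a pseudocount of 5 and 3.06 with 0.1, and the gene was called higher with each.

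Glutathione synthesis starts with glutamate cysteine ligase, whose catalytic subunit is Gclc and whose modifier subunit is Gclm. Gclc (chromosome 9, 77602342 to 77642296, plus strand) had 15.2 FPKM in day 5 DTA, against 8.44 in the control at day 5 and 10.5 in that at day 1. Gclm (chromosome 3, 121948510 to 121969566, plus strand) had 16.9 FPKM in day 5 DTA, against 10.01 and 11.2 in the day 5 and day 1 controls. For both, DTA lay above both controls. The ratios at day 5 were 1.799 for Gclc and 1.69 for Gclm, and the log2 differences of 0.78 and 0.70 did not reach the size for a call. Against the day 1 control they were 0.49 and 0.55. Exons of Gclm overlap those of Gm17494, a noncoding gene on the other strand; whether strand was used in counting is not given, so fragments there cannot be told apart.

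Slc7a11, the transporter that brings in cystine for glutathione, had nearly the same level in the 3 libraries. It stood at 7.496 FPKM in day 5 DTA, against 6.83 in the control at day 5 and 7.17 in that at day 1 (chromosome 3, 50168858 to 50247535, minus strand). Its log2 difference of 0.12 was under the 0.26 that was the median of genes at 5 FPKM or more. The sign turned when libraries were scaled by the median ratio of genes (-0.10), or to a reduced total that leaves out photoreceptor markers and the 50 most abundant genes (-0.05). In its transcripts 3.30% of 31-base stretches also occur in transcripts of other coding genes, in Gclm 1.34% and in Srxn1 0.0719%. The corresponding share was 0 for the other 7 members.

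Txnrd1 encodes cytosolic thioredoxin reductase, the selenoprotein that keeps thioredoxin reduced. It is the member with values in all 4 libraries (chromosome 10, 82296696 to 82360469, plus strand). Txnrd1 had 20.0 FPKM in day 1 DTA against 13.1 in its control, and 22.03 in day 5 DTA against 11.6 in its control. Both DTA values lay above both control values. The ratio was 1.53 at day 1, from 1.43 to 1.65 by the bounds, and 1.90 at day 5, from 1.69 to 2.15. The log2 differences were 0.58 and 0.87, neither of them a call. At day 1 the size rule called 54 of 2623 genes higher, 2.06%, and 16 lower, 0.61%, and the median difference was 0.05. The day 5 difference exceeded the day 1 difference by 0.29, of which 0.13 lay between the DTA libraries and 0.16 between the controls, where Txnrd1 was lower at day 5. Over the genes of the day 1 DTA file the FPKM summed to 101316 in day 1 DTA, against 100262 in its control. The day 1 values rest on the assumption that the FPKM of that file were normalised over the whole library. A difference of sex between day 1 DTA and its control could not be checked.

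Srxn1 encodes sulfiredoxin, which restores peroxiredoxins that have been overoxidised. Srxn1 (chromosome 2, 151931466 to 151937089, plus strand) had 24.7 FPKM in day 5 DTA, against 27.9 in the control at day 5 and 24.0 in that at day 1. The DTA value lay between the controls, and the log2 difference of -0.17 against the day 5 control was 0.04 against the day 1 control. Nqo1, a quinone reductase often read as a marker of NRF2 activity, was low throughout (chromosome 8, 109912125 to 109927105, minus strand). It stood at 1.65 FPKM in day 5 DTA, against 1.83 in the control at day 5 and 2.09 in that at day 1, a difference of -0.10.

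**Figure D3:**
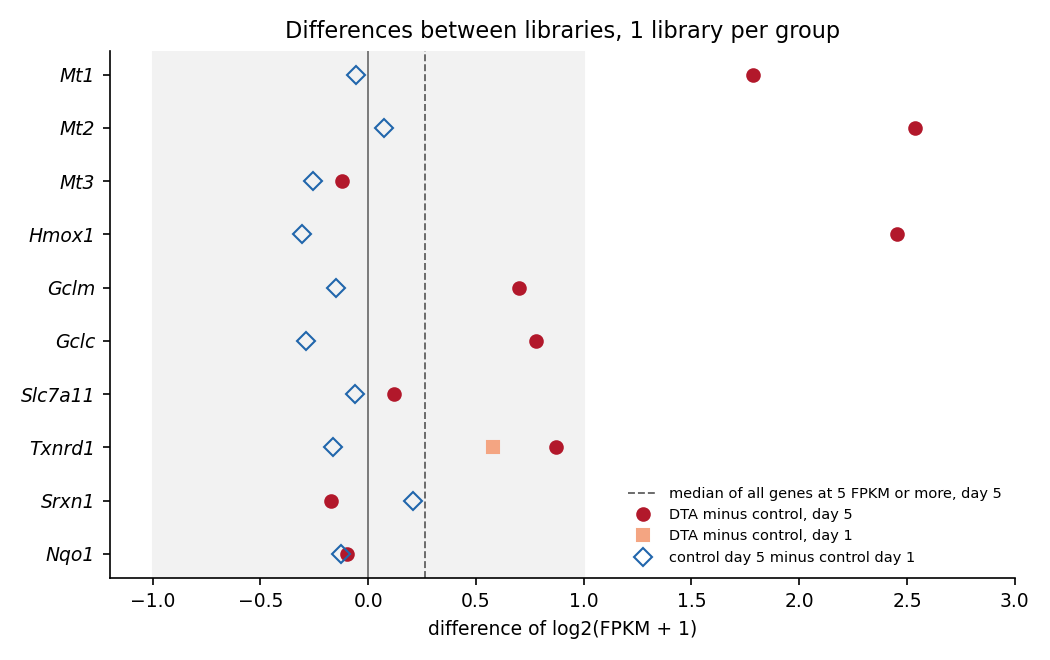
Difference of log2(FPKM + 1) for each of the 10 genes: DTA minus control at day 5 (filled circles), DTA minus control at day 1 (filled square, Txnrd1 only) and control day 5 minus control day 1 (open diamonds). The grey band spans differences under 1 in size and the dashed line is the median of 0.26 over genes at 5 FPKM or more at day 5; Mt2, Hmox1 and Mt1 lie beyond the band, Txnrd1, Gclc and Gclm between the line and its edge.

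Ordered by FPKM, Mt1 was the highest member in day 5 DTA and in both controls. In day 5 DTA the order below it was Mt2, Mt3 at 25.2, Srxn1 at 24.7 and Txnrd1 at 22.03 FPKM, and Nqo1 was the lowest. Mt3, Srxn1 and Txnrd1 are near neighbours whose order is not firm: by midpoints of the bounds Srxn1 came 3rd with 23.3, Txnrd1 4th with 22.1 and Mt3 5th with 16.9. In the day 5 control Mt2, Srxn1 and Mt3 followed Mt1 with 33.1, 27.9 and 27.5 FPKM. The FPKM of Mt1 was 1.37 times that of Mt2 in day 5 DTA, 2.33 times in the control at day 5 and 2.55 times in that at day 1.

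Around the members, 131 further genes in 7 lists were examined, of which 130 were measured at day 5 and 80 reached 5 FPKM. Of these 80, 7 were called higher, 8.75%, and 0 lower, next to 6.75% and 1.77% of all genes; the share higher is near that of all genes. Of the 7, 4 (Maff, Mafk, Txnrd2 and Cyba) were under 5 FPKM in both controls and entered the 80 through the DTA library alone, as did 299 of the 667 genes called higher overall. At day 1, 30 were measured, 17 reached 5 FPKM, 0 were called higher and 1 lower.

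The regulators of the NRF2 pathway held 3 of the 7. Of 11 regulators measured 10 reached 5 FPKM, and of these Maff, Mafk and Nfe2l2 were called higher and 0 lower. The list median was 0.52, or 0.30 and 0.36 after the 2 scalings. Maff, a small Maf protein that pairs with NRF2 or BACH1, had 44.6 FPKM in day 5 DTA, against 0.783 in the control at day 5 and 0.411 in that at day 1, a log2 difference of 4.68. Mafk, another small Maf, had 8.85 FPKM in day 5 DTA, against 2.39 in the control at day 5 and 2.11 in that at day 1. Nfe2l2, which encodes NRF2 itself, had 19.7 FPKM in day 5 DTA, against 8.44 in the control at day 5 and 10.3 in that at day 1, 2.33-fold higher. Its difference of 1.13 fell under the size rule with a pseudocount of 5, after both scalings and against the day 1 control. Mafg (0.78) and the KEAP1-binding autophagy receptor Sqstm1 (0.54) were not called. Nor were Bach1 with 6.71 FPKM in day 5 DTA and 4.36 in its control, Keap1 with 18.7 and 14.1, or Mtf1 with 8.23 and 6.77 FPKM. At day 1 Mafg had 21.6 FPKM in DTA and 21.6 in control, and Sqstm1 90.2 and 85.5.

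Targets of NRF2 outside the set held no call among the 15 that reached 5 FPKM and could be called. Over all such genes 6.75% were called higher, so a count of 0 among 15 carries little weight. Of 26 measured, 15 lay above 0 and 11 below, and the median was 0.18. It came to 0.02 after median ratio scaling, 0.06 after scaling to the reduced total and 0.01 against the day 1 control. The transferase Gstp1, which has a near-identical copy in the genome and is thus uncertain, had 35.4 FPKM in day 5 DTA and 53.1 in its control. Abcc1, an exporter of glutathione conjugates, had 14.0 and 9.30 FPKM in the same libraries.

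Among 26 enzymes that handle superoxide, peroxides and thiols, 19 reached 5 FPKM and 1 was called higher at day 5. The median over the 26 was 0.21. That median came to 0.02 and 0.06 after the 2 scalings and to 0.01 against the day 1 control. The gene called was Txnrd2, the mitochondrial thioredoxin reductase, with 9.09 FPKM in day 5 DTA, against 2.89 in the control at day 5 and 3.35 in that at day 1, a difference of 1.37. The superoxide dismutases Sod1 (0.18) and Sod2 (0.50), the glutathione peroxidase Gpx1 (0.67) and catalase, Cat (-0.17), were not called. Gpx3, a secreted glutathione peroxidase, was the 1 gene called lower at day 1. It had 3.17 FPKM in day 1 DTA against 39.0 in its control, and 2.61 in day 5 DTA against 3.60 in its control, so the day 1 control alone was high. Its difference of -3.26 at day 1 barely exceeded the -3.12 between the controls.

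Of 13 genes of cysteine and glutathione supply, 5 reached 5 FPKM and 0 were called, a count too small to carry weight. The median over the 13 was 0.13, which turned to -0.03 after each of the 2 scalings. Slc6a6, the taurine transporter, had 136 FPKM in day 5 DTA, against 258 in the control at day 5 and 305 in that at day 1, a difference of -0.92 that was a call after both scalings, against the day 1 control and against the mean of the controls. Slc3a2, the partner chain of Slc7a11 at the cell surface, had 49.9 FPKM in day 5 DTA and 35.2 in its control.

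Zinc and copper transporters held no call at day 5, but only 15 of the 24 measured reached 5 FPKM and could be called. Calls were rare in general, 6.75% higher and 1.77% lower, so 0 among 15 carries little weight. The median over the 24 was 0.21, which came to -0.002 after median ratio scaling and 0.05 after scaling to the reduced total. Slc30a1, a zinc exporter and like Mt1 a target of MTF1, had 10.8 FPKM in day 1 DTA against 8.66 in its control, and 9.14 in day 5 DTA against 7.24 in its control. The zinc importers Slc39a1 and Slc39a7 had 23.6 and 47.9 FPKM in day 5 DTA, against 11.9 and 31.6 in the day 5 control, with differences of 0.94 and 0.59. Slc39a4 differed by 1.66 but stayed under 5 FPKM, at 2.71 in day 5 DTA and 0.177 in its control. Atp7b, a copper exporter, differed by -1.05 and also stayed under 5 FPKM, at 0.994 in day 5 DTA, against 3.12 in the control at day 5 and 2.90 in that at day 1.

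Of 19 measured genes of heme and iron handling 15 reached 5 FPKM, and 2 were called higher. The median over the 19 was 0.31, or 0.07 and 0.13 after the 2 scalings. Cp, ceruloplasmin, the copper-containing ferroxidase, had 106 FPKM in day 5 DTA, against 27.4 in the control at day 5 and 35.8 in that at day 1, a difference of 1.91. Trf, transferrin, had 97.0 FPKM in day 5 DTA, against 43.5 and 71.0 in the day 5 and day 1 controls. Its difference of 1.14 was no call after either scaling, against the day 1 control or against the mean of the controls. The ferritin chains Ftl1 and Fth1 had 137 and 406 FPKM in day 5 DTA, against 84.3 and 467 in the day 5 control, with differences of 0.69 and -0.20. Hpx, the plasma heme carrier hemopexin, had 3.83 FPKM in day 5 DTA and 0.360 in its control.

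NADPH oxidase subunits, which make superoxide and are known chiefly from phagocytes, had a list median of 0.72, with 9 of 10 above 0, though only Cyba reached 5 FPKM. With such low values the median depends on the pseudocount, being 0.19 with 5 and 1.75 with 0.1. Cyba had 9.57 FPKM in day 5 DTA, against 3.12 in the control at day 5 and 3.67 in that at day 1, a difference of 1.36. The summed FPKM of the 10 was 17.3 in day 5 DTA, against 4.59 in the control at day 5 and 5.08 in that at day 1. With a pseudocount of 5, Cyba, Mafk and Txnrd2 were no longer called.

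**Figure D4:**
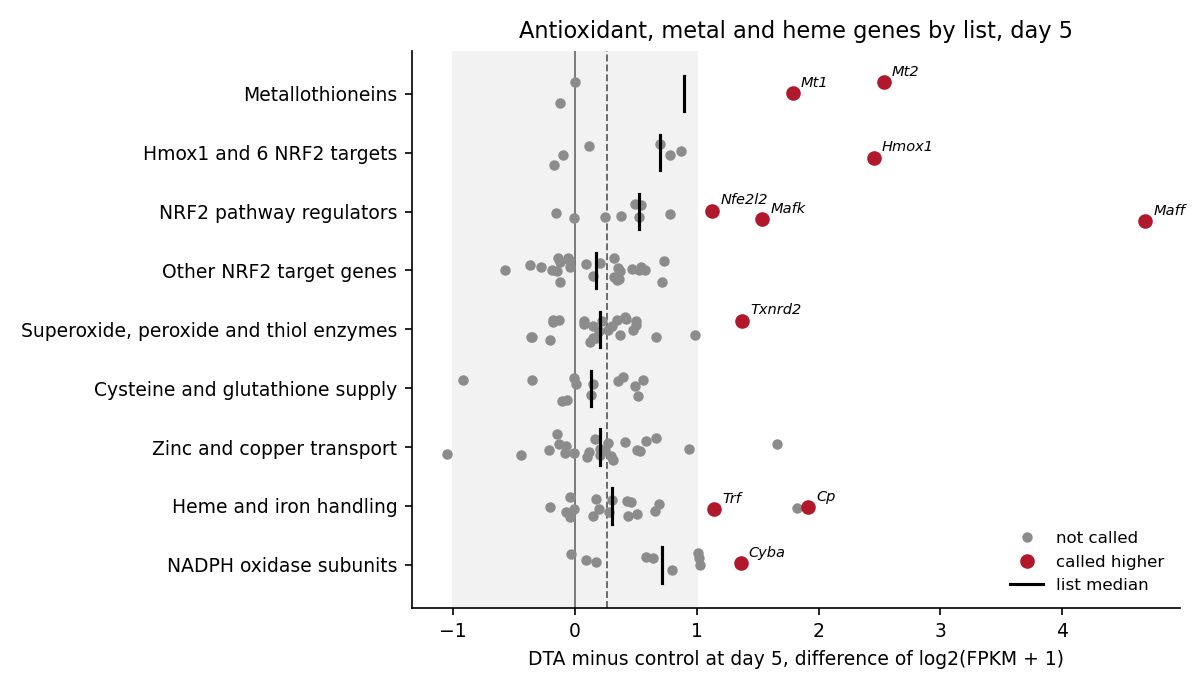
Difference of log2(FPKM + 1), DTA minus control at day 5, for every measured gene of 9 lists, the upper 2 of which hold the 10 members and Mt4. Red points are genes called higher, grey points genes not called, black bars list medians, the grey band differences under 1 in size and the dashed line the median of 0.26 over genes at 5 FPKM or more; grey points beyond the band were under 5 FPKM or did not exceed their difference between the controls.

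Markers of several cell types moved at the same time. Of 12 microglia and macrophage markers, 10 were called higher at day 5, and their summed FPKM was 172 in DTA, against 21.4 in the control at day 5 and 21.3 in that at day 1. The ratio of these sums, DTA over control, was 8.02, and 0 of the 12 were under 0.1 FPKM in day 5 DTA. All 10 were under 5 FPKM in both controls and reached it through the DTA library alone, and the other 2 did not reach it, so the count itself carries no weight; over all genes 6.75% were called higher. Gfap, the filament protein of astrocytes and reactive Müller glia, had 68.5 FPKM in day 5 DTA, against 6.85 in the control at day 5 and 4.66 in that at day 1. The 3 other astrocyte markers were not called, and of all 4 only 2 reached 5 FPKM. Of 10 Müller glia markers 1 was called higher and 2 lower, with sums of 554 FPKM in day 5 DTA, 1393 in the control at day 5 and 1719 in that at day 1.

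Of 9 rod markers 6 were called lower and 0 higher, and of 7 cone markers 5 lower and 0 higher, the cone sum being 225 FPKM in day 5 DTA, against 694 in the control at day 5 and 635 in that at day 1. Red blood cell markers, 6 in number, summed to 64.7 FPKM in day 5 DTA, against 32.5 and 80.8 in the day 5 and day 1 controls. Of the 6, 3 reached 5 FPKM and 0 were called. Of the 12 lens markers 8 reached 5 FPKM, and 5 were called lower in day 5 DTA and 0 higher. The median of the 12 was -2.67, beside -2.68 between the controls. The 6 endothelial markers summed to 26.5 FPKM in day 5 DTA, against 26.8 in the control at day 5 and 22.4 in that at day 1, and in the same libraries the 9 pigment epithelium markers to 8.61, 20.1 and 86.4. The part of these cell types in the values of Mt1, Mt2 and Hmox1 was not tested.

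The genes whose pattern over day 5 DTA and the 2 controls was most like that of a member were taken from 9068 genes, by the Euclidean distance between log2(FPKM + 1) values centred on their mean over these 3 libraries. For Mt2 they were Tyrobp at a distance of 0.0187, Birc3 at 0.0413 and Gbp5 at 0.0676. Tyrobp, also one of the microglia and macrophage markers, had 16.3 FPKM in day 5 DTA, against 2.04 in the control at day 5 and 1.87 in that at day 1. In the same libraries Birc3 had 7.63, 0.430 and 0.396 FPKM and Gbp5 6.78, 0.306 and 0.326. The 9068 genes had to reach 5 FPKM in one of these libraries, and these 3 did so through DTA alone. At such low control values the distance depends on the pseudocount of 1, and no other was tried for it. For Hmox1 they were Ctnnal1 at 0.0469, Chi3l1 at 0.0759 and H2-D1 at 0.0863. For Slc7a11, whose level hardly moved, they were Pcdhb20, Samd14 and Kifap3, at 0.00113 to 0.00517. With 3 libraries such a likeness is a description and nothing more.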

How the data were processed

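Per the labels' protocols, retinal RNA was harvested with Sepazol and sequenced after Illumina mRNA-seq preparation. How many mice went into a library is not stated there. The authors computed FPKM, which the files hold for each gene beside a lower bound, an upper bound and a status, per the file headers. Cufflinks 2.1.1, bcl2fastq 1.8.4, CASAVA 1.8.2 and build mm9 stand in the submitters' processing notes without roles. The aligner and annotation were not given in the sources used here. Because FPKM is scaled to the library, a loss of abundant rod transcripts raises all others, so 2 other scalings were tried.

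Lines without an estimate were read as missing, and symbols with more than 1 locus (251) had their FPKM added up. Locus starts had 1 added, since the files count from 0. Differences are of log2(FPKM + 1), and ratios are given where both FPKM are at least 1. Depth was estimated from the commonest low value of FPKM times transcript length, taken as 1 fragment. In 10.3% to 23.8% of lines the FPKM exceeded the authors' upper bound. GENCODE vM1 gave strand, overlaps and transcript lengths. Named genes are all members and, in each of 7 further lists, called genes (up to 4 each way), the 2 largest uncalled differences among genes at 5 FPKM or more and some fixed by name; Hpx, Slc39a4, Atp7b, Nup93, Bbs2, Nlrc5, Mir138-2, Xist and Ddx3y were named after their values were seen. One gene that the rule takes is not reported here. The members and the lists were chosen with earlier results of these data known. Only the call by size was tested on simulated data, with large changes in well-expressed genes and small noise. Genes as low in the controls as Hmox1, differences between the controls beyond that noise, and the other steps were not simulated. Python 3.11.15, numpy 2.4.6, pandas 2.3.3 and matplotlib 3.10.9 were used.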

Additional observations from a re-analysis of the deposited data

How the results depend on the processing

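In 11 alternatives Mt1 (1.54 to 1.7995), Mt2 (2.29 to 2.61) and Hmox1 (1.40 to 3.06) stayed called higher at day 5 and no other member was called. A minimum of 1 FPKM or none, and no requirement on the controls, only loosen the rule. These alternatives leave the differences as they were and could not have undone a call. Mt3 and Nqo1 stayed below 0, Gclm (0.47 to 0.75), Gclc (0.49 to 0.84) and Txnrd1 (0.64 to 0.92) above 0, and Srxn1 (-0.41 to 0.04) and Slc7a11 (-0.10 to 0.13) took both signs. The member median of 0.74 was 0.57 with a pseudocount of 5, 0.51 after median ratio scaling, 0.57 after scaling to the total without photoreceptor markers and the 50 most abundant genes, and 0.52 against the day 1 control. Those 2 scalings lowered the median of genes at 5 FPKM or more to 0.03, which the first does by construction, and 0.08, where the cause was not tested. They also moved the share of calls that were higher to 62.4% (424 higher, 255 lower) and 66.7%, beside 79.2%. With a pseudocount of 5 the calls numbered 472 at day 5, beside 842, and 46 at day 1, beside 70. Txnrd1 at day 1 differed by 0.74 against the day 5 control. With midpoints of the bounds, an alternative added after seeing the data, the calls numbered 39 at day 1 and 113 between the controls, beside 240; the cause was not tested. The further genes called higher numbered 3 with a pseudocount of 5 and 12 with a minimum of 1 FPKM or none, beside 7; called lower were 1 with that minimum (Atp7b), 1 after each scaling and against the mean of the controls (Slc6a6) and 2 against the day 1 control (Gpx3 and Slc6a6), beside 0. Under the 2 scalings the medians of the 7 further lists lay between -0.03 and 0.66, beside 0.13 to 0.72. No paired analysis was possible because each group is 1 library. No replicate could be left out for the same reason. The depth of about 29.3 M (mega) fragments limits low genes such as Nqo1, and the absence of replicates limits all statements to these libraries.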
